A study of Homo sapiens with 47 samples.

Results

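Globins and erythroid genes were examined in single-cell RNA-seq data of circulating tumor cells (CTC), that is, cancer cells taken from blood. The 8 genes were listed by name: the beta-like globins HBB, HBD, HBG1 and HBG2, the alpha globins HBA1 and HBA2, the heme synthesis enzyme ALAS2 and the membrane anion exchanger SLC4A1. Of these, 6 had a row among the 25739 genes of the table, and HBA1 and HBG1 had no row among the genes used here. The genes were listed with their values in these cells known, so their levels, their differences between CTCs and cultured cells and their correlations are given as a description. A fit across all genes, described with the wider lists, had members with enough reads in it, and nothing about the members is drawn from it.

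The tumor cells were MDA-MB-231-LM2 (LM2), an established human triple-negative breast cancer line selected for metastasis, labeled with GFP. They were injected into the mammary fat pad of NSG mice, an immunodeficient strain without functional T, B and NK cells that keeps its own red cells and myeloid cells, and they spread spontaneously from the primary tumor. Blood was drawn by heart puncture, enriched by cell size and stained for CD45, a leukocyte surface marker used for negative selection, and single GFP-positive cells were picked. The table holds 37 CTCs from 5 mice (5541 with 2 CTCs, 5542 with 4, 5545 with 10, 5546 with 17 and 5549 with 4) and 6 LM2 cells picked from culture, which had not been in an animal. The mice were several weeks old at injection. Mouse 5546 has 9 libraries with a c in their names and 8 with an s, and the sources used here do not explain these letters.

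Hemoglobin carries oxygen in red cells and consists of alpha and beta chains around heme. HBB encodes the beta chain of adult hemoglobin and HBD the delta chain of a minor adult form, whereas HBG1 and HBG2 encode the gamma chains of fetal hemoglobin. HBA1 and HBA2 encode the same alpha chain. ALAS2 catalyzes the first step of heme synthesis in erythroid cells, where its relative ALAS1 serves other tissues, and SLC4A1, called band 3, exchanges chloride and bicarbonate across the red cell membrane. These genes are used as markers of red cells and their precursors.

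HBB (chr11:5225464-5229395, minus strand, GRCh38) and HBD (chr11:5232678-5243657, minus strand) lie side by side in the beta-globin cluster. Their coding sequences are 92.97% identical, with 31 differences over 441 bases. The stretch of HBD from coding base 310 to coding base 399, counted from the A of the start codon, holds 10 of these differences. It shows bases by which reads of the human pair can be told apart where a read covers them, and mouse sequence was not compared. Capitals mark the bases that differ from HBB at the same place.
HBD: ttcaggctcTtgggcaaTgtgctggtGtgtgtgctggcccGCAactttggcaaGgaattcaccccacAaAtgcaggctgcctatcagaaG
Over whole exons, 97.1% of the 50-base stretches of HBB and 97.04% of those of HBD were found once in the genome, and 100% of the 75-base stretches of both were. The length of the sequencing reads is not given in the sources used here. The authors also let a read align over part of its length, with a low minimum of matching bases. Exact matches of whole stretches therefore do not show how each read was assigned to HBB or HBD.

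The alpha and gamma pairs could not be resolved in this way. The coding sequences of HBA1 (chr16:176680-177522, plus strand) and HBA2 (chr16:172876-173710, plus strand) have 0 differences over 426 bases, and 27.1% of the 75-base exon stretches of HBA2 were found once in the genome. HBG1 (chr11:5248269-5249857, minus strand) and HBG2 (chr11:5253188-5505605, minus strand) have 2 differences over 441 bases, and 54.7% of the 75-base stretches of HBG2 were unique. The authors kept only reads that mapped to 1 place. Reads from the shared parts of these pairs are therefore not counted, the values of HBA2 and HBG2 are uncertain, and the missing rows of HBA1 and HBG1 cannot be read as missing RNA. ALAS2 (chrX:55009055-55030977, minus strand) was unique in 100% of its 75-base stretches, and SLC4A1 (chr17:44248390-44268141, minus strand) in 99.9%.

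**Figure D1:**
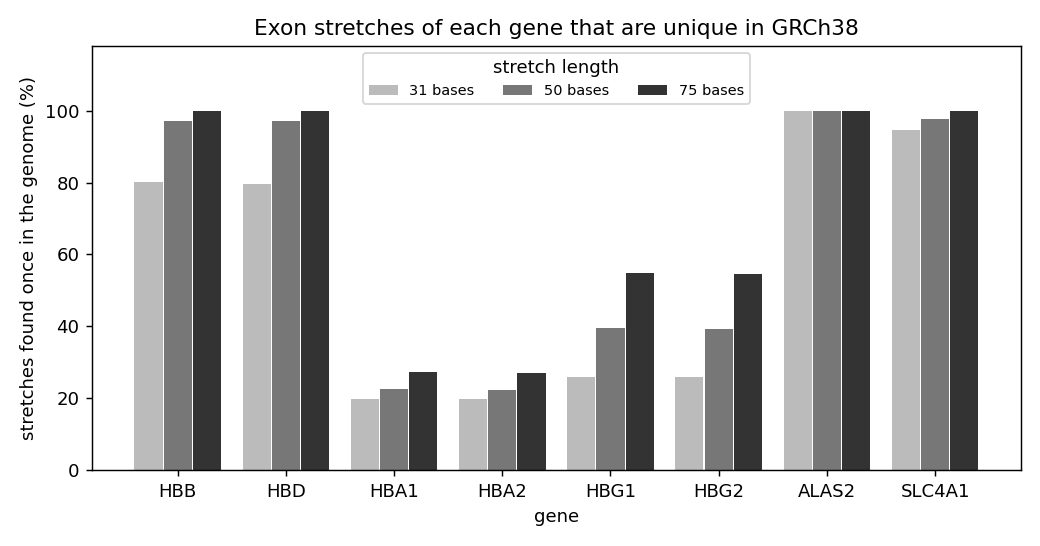
Share of the exon stretches of 31, 50 and 75 bases (shades) of each of the 8 genes that occur once in the human genome, in percent. At 75 bases HBB, HBD and ALAS2 reach 100%, whereas HBA1 and HBA2 stay at 27.3% and 27.1%. Only exact matches were counted, whereas the authors' alignment accepted partial ones.

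The windows of 120 bases before the transcription start were shown for HBD and ALAS2, the members with an entry in the RefSeq promoter table (GRCh38.p14), because the RNAs of both are compared with HBB below. They were searched on both strands for 3 motifs known from globin promoters. These were the CCAAT box, the CACACCC box and, as the TATA-like box of these genes, the letters ATAAA, and no match of one overlapped another. Capitals mark the matches.
HBD, chr11:5234484-5234603, minus strand: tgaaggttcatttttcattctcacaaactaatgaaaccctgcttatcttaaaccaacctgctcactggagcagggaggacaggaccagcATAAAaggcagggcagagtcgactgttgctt
ALAS2, chrX:55030978-55031097, minus strand: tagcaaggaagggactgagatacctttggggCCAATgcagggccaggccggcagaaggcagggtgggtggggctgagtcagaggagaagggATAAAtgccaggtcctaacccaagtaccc
The letters ATAAA occurred in both windows, CCAAT in that of ALAS2, and CACACCC in neither. Of 35116 promoter windows of this length, 17.8% hold ATAAA, 20.4% hold CCAAT and 3.59% hold CACACCC, so that these matches describe the letters and show no binding.

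Reads on genes ranged from 469614 to 2041333 per CTC and from 776949 to 1186197 per cultured cell. The CTCs had reads on 2227 to 11010 genes, and all 37 had reads of VIM, CAV1, KRT18 and KRT8, which LM2 cells also have in culture. Not every gene listed as a marker of LM2 cells had reads in every CTC. All labels name the same batch date, so no batch could be compared. Reads carry no molecular identifiers, so the intervals of read shares below cover counting error only. Those of detection treat the cells as independent draws, although several come from each mouse, and do not cover the spread between mice. Alignment by the authors was to human sequence alone. Whether a globin read came from a human or a mouse transcript, and whether its RNA was made in the picked cell, was not tested.

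HBB RNA was detected in 35 of 37 CTCs (94.6%, exact 95% binomial interval 81.8% to 99.3%) and HBD RNA in 34 of 37 (91.9%, 78.1% to 98.3%). HBA2 was detected in 29 CTCs (78.4%, 61.8% to 90.2%) and ALAS2 in 20 (54.1%, 36.9% to 70.5%). HBG2 was detected in 6 CTCs (16.2%, 6.19% to 32.01%) and SLC4A1 in 2 (5.41%, 0.661% to 18.2%). None of the 6 genes had a read in any of the 6 cultured LM2 cells, and the exact interval of 0 of 6 cells reaches up to 45.9% of cells with a read. The order of detection followed the number of reads except for HBA2 and ALAS2. HBB gathered 76108 reads over the CTCs, HBD 19748, ALAS2 1713, HBA2 575, HBG2 7 and SLC4A1 3.

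Per length of mRNA, HBA2 and ALAS2 changed places. In RPM per kilobase (RPM being reads scaled to the same total on genes in each cell), HBB reached 3047 as a mean over the 37 CTCs, HBD 809, HBA2 25.9, ALAS2 20.3, HBG2 0.272 and SLC4A1 0.0146. HBB was above HBD in each of the 5 mouse means of RPM per kilobase, and HBD was above HBA2. HBA2 was above ALAS2 in each mouse as well, with 56.6 against 38.6 in mouse 5549 and 3.15 against 2.12 in mouse 5545. The spread between mice was larger than the step between these last genes, so that HBA2 and ALAS2 are neighbours in level. Since most of the exon sequence of HBA2 is also found in HBA1 and its reads were not counted, the per-length level of alpha globin RNA is understated by an unknown amount.

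The 6 genes together took 0% to 1.59% of the reads of a CTC, with a median of 0.132%. The highest share was in CTC 5549-6, where 9343 reads fell on these genes. CTC 5545-7, with 1296028 reads on genes, had none.

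HBB, the adult beta globin, differed widely between CTCs and between mice. In units of normalized counts (reads over a size factor set for each cell), the CTCs of mouse 5541 had 1.81 and 155. Those of mouse 5542 had 660, 1906, 1940 and 2051. Those of mouse 5549 had 158, 632, 1305 and 12138. Mouse 5542 was thus the most even and mouse 5549 held both low and very high CTCs. In the 10 CTCs of mouse 5545 HBB ran from 0 to 2176 with a median of 9.69, and in the 17 CTCs of mouse 5546 from 170 to 3909 with a median of 1615. Every CTC of mouse 5546 thus exceeded 5541-1, the higher CTC of mouse 5541, whereas 3 CTCs of mouse 5545 did so. Mean HBB over the 5 mouse means was 1482 ± 1409 normalized counts (SD, n = 5). Single CTCs set some of these means. Without 5549-6 the mean of mouse 5549 was 698 instead of 3558, without 5545-11 that of mouse 5545 was 49.1 instead of 262, and without 5541-1 mouse 5541 was left with the 1.81 of its other CTC.

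Against the cultured cells, whose limit for 0 reads is 3 reads over the 6 cells or 0.543 RPM, mean HBB was at least 185-fold higher in mouse 5541, 526-fold in 5545, 3324-fold in 5542, 4892-fold in 5546 and 7057-fold in 5549. These are lower bounds for these cells. Without the same 3 CTCs they were 3.86-fold in mouse 5541, 101-fold in 5545 and 1805-fold in 5549. The cultured cells are 1 culture without a replicate, so the difference is given as a description.

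HBD, the delta globin, rose and fell with HBB. The CTCs of mouse 5541 had 0 and 32.1 normalized counts of HBD. Those of mouse 5542 had 150, 477, 520 and 527, and those of mouse 5549 had 42.1, 160, 460 and 3049. The CTC with the lowest and the CTC with the highest HBB in each of these 3 mice were also the lowest and the highest for HBD. HBD ran from 0 to 622 in mouse 5545, with a median of 2.95, and from 40.5 to 1054 in mouse 5546, with a median of 431. Averaged over the mouse means HBD was at 385 ± 367 normalized counts (SD, n = 5), and by mouse mean HBD was at least 37.96-fold to 1861-fold above the limit in culture. Both ends rest on 1 CTC, since without 5541-1 mouse 5541 had no HBD read and without 5549-6 the bound of mouse 5549 was 571-fold. Without 5545-11 that of mouse 5545 was 27.9-fold instead of 149-fold.

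**Figure D2:**
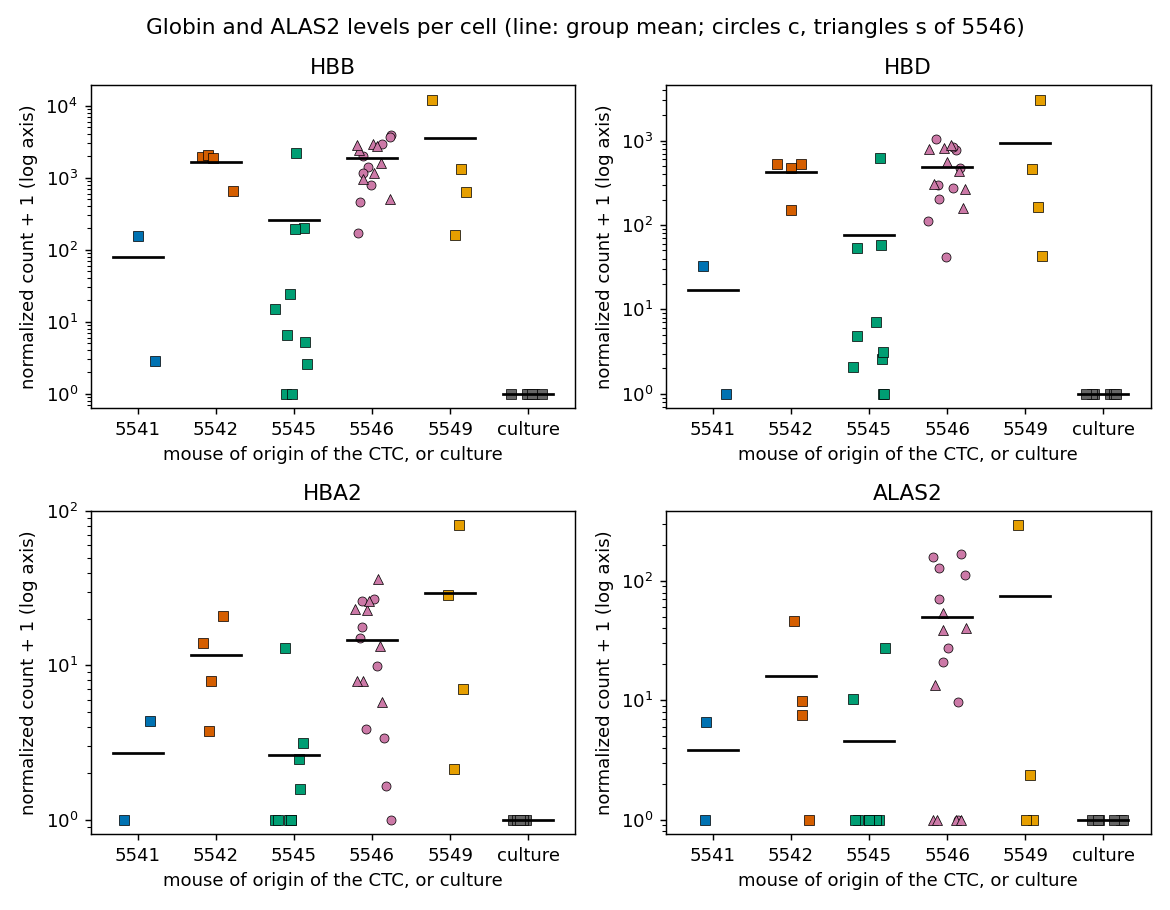
Normalized count plus 1 (log axis) of HBB, HBD, HBA2 and ALAS2 in each CTC by mouse and in each cultured LM2 cell; lines are group means, and circles and triangles are the c and s libraries of mouse 5546. All 6 cultured cells lie at 0 for the 4 genes, and mouse 5545 has 1 CTC, 5545-11, far above its others for HBB and HBD.

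The reads counted for HBD and HBB kept a similar ratio across this range. Whether reads of mouse transcripts enter this ratio was not tested. In the 31 CTCs with at least 20 reads of the pair, between 42 and 9120 reads, HBD made up 17.2% to 26.0% of HBB plus HBD reads, with a median of 20.8%. Pooled over all CTCs the share was 20.6% (20.3% to 20.9%). The SD over the 31 CTCs was 2.03 percentage points, and the counting error alone had a root mean square of 1.83 points. The latter is set mostly by CTCs with few reads, such as 5545-12 with 42 reads of the pair and 5545-10 with 62. It does not describe the CTCs with many reads, where counting error is smaller. The share stayed between 17.2% and 26.0% while the number of reads behind it differed 217-fold. Spearman's rho of the share with the reads of the pair was -0.033 over the 31 CTCs.

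Some CTCs with many reads did stand off this ratio. The exact interval held the pooled share in 17 of the 31 CTCs. With counting error alone, about 95% of such intervals would hold it. CTC 5549-2 had the highest share, 26.0% (24.4% to 27.8%), and CTC 5546-c10 had 17.4% (16.1% to 18.8%). The lowest share, 17.2% in 5541-1, had an interval from 13.3% to 21.7% that held the pooled value. By mouse the pooled shares were 17.0% in 5541, 20.3% in 5542, 20.4% in 5546, 21.3% in 5549 and 22.1% in 5545, a mean of 20.2% ± 1.93 (SD, n = 5). The value of mouse 5541 rests almost wholly on the 332 reads of 5541-1 and is the least certain. Within mouse 5546 the c libraries had 19.4% (19.0% to 19.9%) and the s libraries 21.7% (21.2% to 22.1%), and the CTCs of the letters overlapped, from 17.4% to 21.2% for c and from 18.4% to 24.1% for s.

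**Figure D3:**
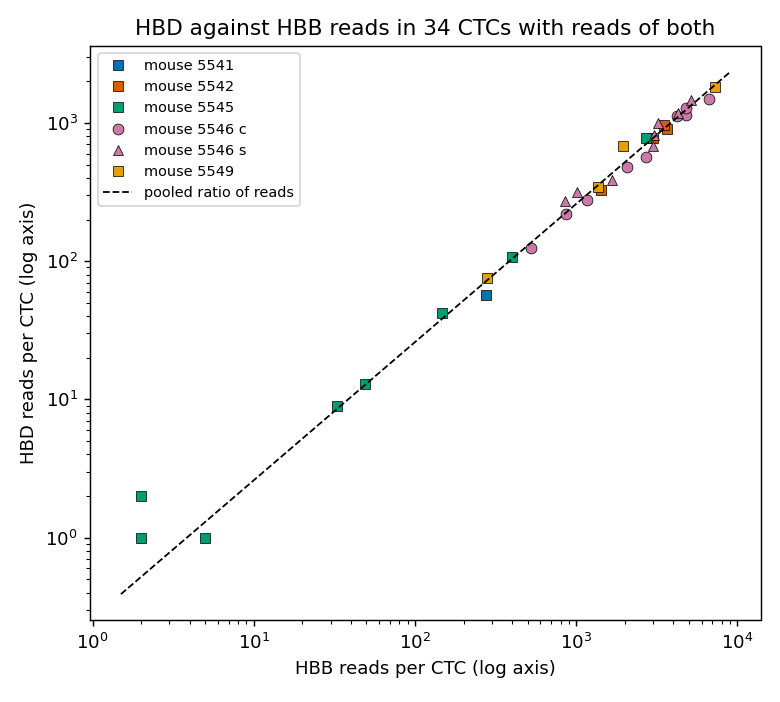
HBD reads against HBB reads (both log axes) in the CTCs with reads of both genes, by mouse and, for mouse 5546, by library letter; the dashed line is the pooled ratio. The points follow 1 line from a few reads to 7289 HBB reads in 5549-6, and 5549-2 lies above it.

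**Figure D4:**
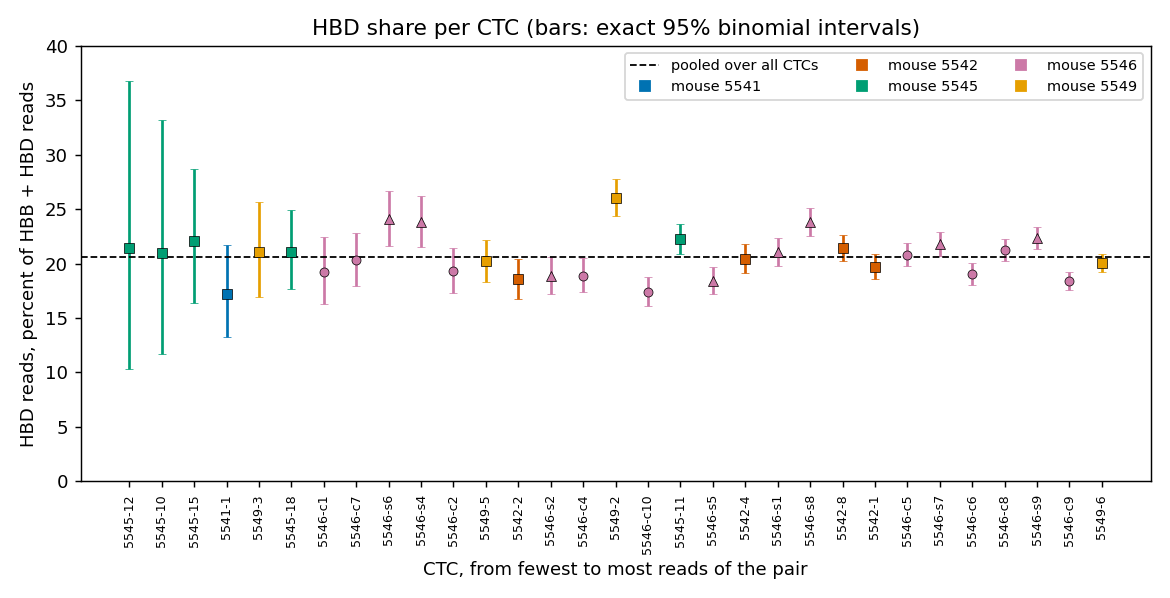
HBD reads as percent of HBB plus HBD reads in the 31 CTCs with at least 20 reads of the pair, ordered by these reads, with exact 95% binomial intervals; the dashed line is the pooled share of 20.6%. The intervals narrow to the right while the shares stay between 17.2% and 26.0%.

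Fetal gamma globin RNA was at the edge of detection. HBG2 had 7 reads in all. CTC 5546-s1 had 2 of them and 5542-1, 5542-8, 5546-c5, 5546-c8 and 5549-3 had 1 each. All but 5549-3, with 281 HBB reads, were CTCs with over 1000 HBB reads. The annotated span of HBG2 also overlaps other genes, and the counting did not use strand. No level can be read from 1 or 2 reads in a CTC.

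HBA2, the alpha globin with a row, was low but present in most CTCs rich in HBB. The CTCs of mouse 5541 had 0 and 3.38 normalized counts of HBA2. Those of mouse 5542 had 2.77, 6.90, 13.0 and 19.8, and those of mouse 5549 had 1.12, 6.04, 27.5 and 79.9. It ran from 0 to 12.0 in mouse 5545, with a median of 0, and from 0 to 35.6 in mouse 5546, with a median of 12.3. Averaged over the mouse means HBA2 was at 11.3 ± 11.1 normalized counts (SD, n = 5). By mouse mean HBA2 was at least 3.34-fold to 60.0-fold above the limit in culture. Without 5545-11 the bound of mouse 5545 was 1.03-fold, without 5549-6 that of mouse 5549 was 29.9-fold, and without 5541-1 mouse 5541 had no HBA2 read. CTC 5545-6 differed from the others in having 1 read of HBA2 and none of HBB or HBD.

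Relative to HBB, HBA2 was less steady than HBD. In the 22 CTCs with at least 1000 HBB reads, HBD gave 211 to 352 reads per 1000 HBB reads, with a median of 255 and a coefficient of variation of 13.2%. HBA2 gave 2.43 to 21.0 reads per 1000 HBB reads, with a median of 6.53 and a coefficient of variation of 54.2%, and was detected in all 22. Its counts are small, with 66 reads at most in a CTC, in 5546-s9. Since counting error grows with low counts, these coefficients were not compared by a test. CTC 5549-2, which had the highest share of HBD, also had the highest ratio of HBA2 to HBB.

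ALAS2, the erythroid enzyme of heme synthesis, was high in some CTCs and not detected in others with similar HBB reads. The CTCs of mouse 5541 had 0 and 5.63 normalized counts of ALAS2. Those of mouse 5542 had 0, 6.49, 8.88 and 45.1, and those of mouse 5549 had 0, 0, 1.34 and 291. In mouse 5545 it was detected in 2 of 10 CTCs, with 26.5 in 5545-11 and 9.29 in 5545-18, and in mouse 5546 in 12 of 17, from 0 to 166 with a median of 26.3. Averaged over the mouse means ALAS2 was at 28.7 ± 31.1 normalized counts (SD, n = 5), and without 5549-6 that of mouse 5549 was 0.447 instead of 73.2. By mouse mean ALAS2 was at least 6.66-fold to 138-fold above the limit in culture. Without the highest CTC of each mouse the bound was 94.1-fold in 5546, 9.76-fold in 5542, 2.54-fold in 5545 and 1.16-fold in 5549, and mouse 5541 had no ALAS2 read.

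Its ratio to HBB had the widest range. In the 22 CTCs with at least 1000 HBB reads, ALAS2 gave 0 to 55.2 reads per 1000 HBB reads, with a median of 13.5 and a coefficient of variation of 106%. It had no read in 6 of them: 5542-2, 5546-c2, 5546-s1, 5546-s2, 5546-s7 and 5549-5. CTC 5546-s7 had 4258 HBB reads and 0 ALAS2 reads, which allows up to 0.705 per 1000 HBB reads. CTC 5546-c5, with 4236 HBB reads, had 225 ALAS2 reads, or 53.1 per 1000. These CTCs had 2922 and 2964 normalized counts of HBB, in this order, but 6606 and 2804 RPM. They also differed in library letter and in genes detected, 4728 and 8975, and the part of these in the ALAS2 values was not tested.

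Within mouse 5546 the ratio of ALAS2 to HBB went with the letter of the library. ALAS2 was detected in 8 of 9 c libraries and in 4 of 8 s libraries. Pooled, it gave 42.1 reads per 1000 HBB reads in the c libraries and 8.70 in the s libraries. By CTC the c libraries ran from 0 to 55.2 with a median of 44.6, and the s libraries from 0 to 19.0 with a median of 6.42. They overlap only through 5546-c2, the c library without a read. The HBB levels of the letters overlapped, from 170 to 3909 normalized counts in c and from 498 to 2922 in s. The genes detected per CTC also went with the letter and did not overlap, with 7438 to 11010 in c and 4225 to 6942 in s. Their part in the ALAS2 ratio was not tested, and no test was made of a difference between letters whose meaning is not known.

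**Figure D5:**
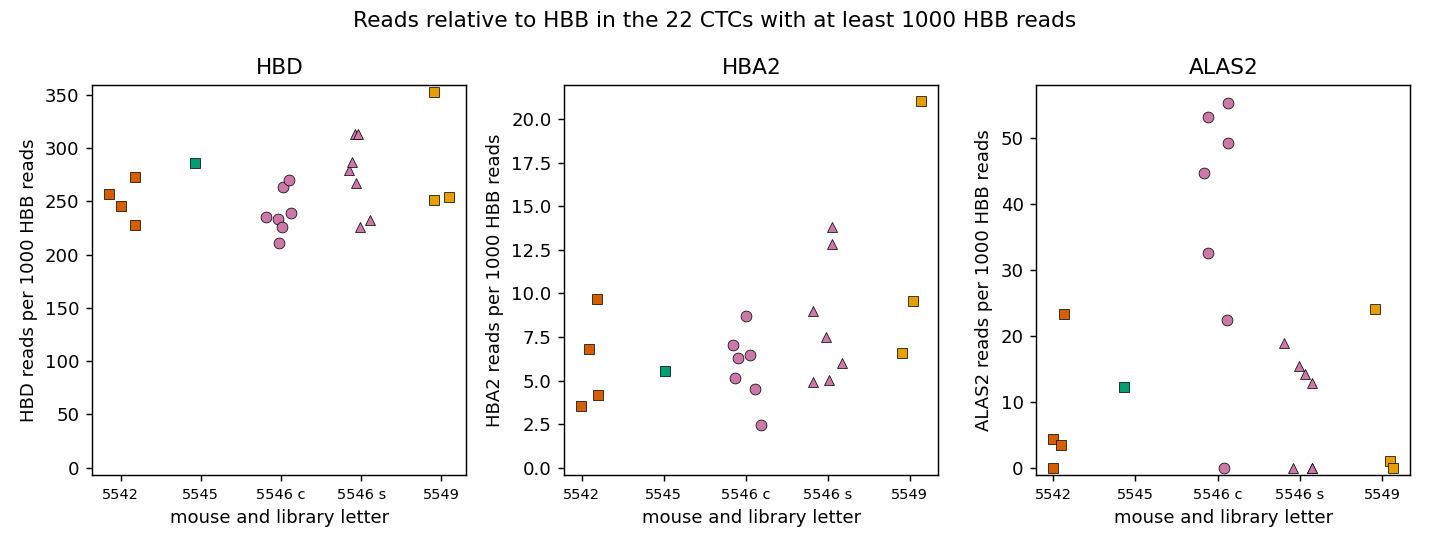
Reads of HBD, HBA2 and ALAS2 per 1000 HBB reads in the 22 CTCs with at least 1000 HBB reads, by mouse and, for mouse 5546, by library letter (linear axes; mouse 5541 has no such CTC). HBD stays between 211 and 352, whereas ALAS2 runs from 0 to 55.2 and lies higher in the c libraries than in the s libraries apart from 1 c library at 0.

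SLC4A1, band 3, was hardly detected. CTC 5545-11 had 2 reads of it and CTC 5546-c8 had 1. CTC 5549-6, with the most HBB, had none. In all 37 CTCs together it gathered 3 reads.

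Across the 37 CTCs the members with enough reads ranked alike. Spearman's rho of normalized counts was 0.99 for HBB with HBD, 0.89 for HBB with HBA2, 0.76 for HBB with ALAS2 and 0.62 for HBA2 with ALAS2. Several CTCs come from each mouse, so these values are a description and carry no p. The order was similar inside mouse 5546 (n = 17), with 0.96 for HBD, 0.85 for HBA2 and 0.67 for ALAS2 with HBB. Inside the c libraries (n = 9) these were 1.00, 0.90 and 0.93, and inside the s libraries (n = 8) 0.95, 0.71 and 0.41. In mouse 5545 (n = 10), where most CTCs had few globin reads, HBD still ranked with HBB at 0.96, and HBA2 did so at 0.25. The HBB and HBD ranking was therefore seen within each of these sets, and that of ALAS2 was weaker in the s libraries than in the c libraries, without a test of the difference.

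Over all 37 CTCs HBB hardly ranked with depth. Its rho was -0.12 with reads on genes, -0.13 with genes detected and 0.016 with the mitochondrial share of reads. Within the s libraries (n = 8) rho was -0.62 with reads on genes and -0.79 with genes detected, and within the c libraries (n = 9) it was -0.17 and 0.33.

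Other genes followed HBB as closely as ALAS2 did. Among the 10546 other genes detected in at least 10 CTCs, the median rho with HBB was -0.037 and 67 genes reached 0.6. The closest was DOCK11P1, a processed pseudogene on chromosome 14, with a rho of 0.92 and 391 reads over 27 CTCs. It was detected in all 22 CTCs with at least 1000 HBB reads and in 0 of the 8 CTCs with fewer than 100, at 1.84 to 9.54 reads per 1000 HBB reads in the former. NOXA1, an activator of NADPH oxidase, followed with 0.88, MAT1A, which makes S-adenosylmethionine, with 0.83 and KREMEN1, a receptor of Dickkopf proteins, with 0.80. IGLV4-60, an immunoglobulin light chain segment, had 0.80 on 29 reads and C2orf66 had 0.78 on 31 reads.

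HBAP1, a pseudogene of alpha globin in the same cluster as HBA2, had a rho of 0.74 with HBB and 126 reads. The last of the 10 closest were ARHGAP44-AS1, an antisense RNA, with 0.73, and the processed pseudogenes UBA52P5 and FTLP16, both with 0.72. Of these 10 genes, 7 had no read in the cultured cells. NOXA1 and KREMEN1 had culture reads in 5 and 3 of the 6 cells, and UBA52P5 in 1. Pseudogenes share sequence with their parent genes and antisense RNAs with the opposite strand, so the origin of these reads is uncertain.

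Genes of 6 wider erythroid lists were compared between CTCs and cultured cells by a rule of size. A gene was counted as higher in CTCs when the mean of each of the 5 mice was at least 4-fold above the mean of the cultured cells, with 1 added to both, and the larger mean was at least 8. This was met by 6 of all 25739 genes (0.0233%), and 487 genes were lower by the same rule (1.89%). HBB and HBD were among the 6, as the choice of the members used this contrast. Of the 56 genes with a row on the erythroid lists, 0 were higher and 5 were lower, and of 32 genes with a row on lists of neutrophil, leukocyte and platelet genes, 0 were higher. On reads summed per mouse, the quasi-likelihood test of edgeR with Benjamini-Hochberg adjustment called 0 of 13813 genes in either direction, while 140 genes were higher and 101 lower at an unadjusted p under 0.05. It tested 43 genes of the erythroid lists, of which 0 were higher and 1, CA2, was lower at an unadjusted p under 0.05. On the lists of other blood cells it fitted 2 platelet, 7 neutrophil and 8 leukocyte genes. Their median log2 ratios of CTCs to culture were 7.80, 6.97 and 5.78, in this order, beside 0.31 over all genes. The neutrophil genes had no read in culture, so that the size of their ratio is uncertain. The culture enters this test as 1 sum, so that 0 calls do not show that genes were alike.

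The direction of small differences depended on the scaling. Size factors ran from 0.503 to 0.842 in cultured cells and from 0.471 to 3.09 in CTCs, with medians of 0.675 and 1.70. On RPM, 12 genes in place of 6 were higher in CTCs by the rule of size, 137 in place of 487 were lower, and 3 in place of 5 were lower on the erythroid lists. The levels below are normalized counts, as mean over the mice ± SD (n = 5) against the mean of the cultured cells, and RPM is given where it turned the direction.

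Of 11 genes of heme synthesis and its transport, all had reads in CTCs and in culture, and 2 were lower in CTCs by the rule of size, of which CPOX also met it on RPM. These were ALAS1, the widely used form of the enzyme, with 13.6 ± 10.7 (SD, n = 5 mice) normalized counts against 117 in culture, and CPOX, a later enzyme of the pathway, with 1.19 ± 1.16 against 19.8. The most abundant was SLC25A37, the mitochondrial iron importer, with 246 ± 223 against 520, whereas its fitted log2 ratio in edgeR was 0.06. UROD had 128 ± 89.0 against 325 and UROS 79.5 ± 58.3 against 157, the latter with a fitted log2 ratio of 0.34 in edgeR. The median log2 ratio of CTCs to culture over the list was -1.33 on normalized counts, beside -0.03 over all genes, and -0.58 on RPM, beside 0.02. In the edgeR fit it was -0.10 beside 0.31. The summed level of the list had a rho of -0.15 with HBB over 37 CTCs.

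The red cell membrane list had 11 of 19 genes with a row, and GYPB, GYPE, RHAG, RHCE, KEL and EPB42 were among those that had none. None of the 11 met the rule of size in either direction. SLC2A1, the glucose transporter of red cells and many other cells, led with 86.6 ± 58.0 against 520 in culture. GYPC, a glycophorin also found outside the red lineage, had 2.73 ± 2.77 against 17.6, ANK1, which anchors band 3 to the skeleton, had 2.25 ± 2.34 against 3.35 but 3.42 against 2.61 on RPM, and AQP1, a water channel, had 1.88 ± 2.87 with no read in culture. The list's summed level had a rho of 0.037 with HBB.

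Of 9 erythroid regulators, 6 had a row, and GATA1, TAL1 and GFI1B had none. KLF1, the activator of adult beta globin, had 1 read at most in each of 4 CTCs. NFE2 was detected in 4 CTCs with a mean of 0.701 ± 1.06, and the erythropoietin receptor EPOR had 7.84 ± 6.79 against 15.8 in culture, with a fitted log2 ratio of 0.38 in edgeR. ZFPM1, the cofactor of GATA1, had 0.557 ± 0.766 against 0.594 but 0.772 against 0.422 on RPM. BCL11A, the repressor of gamma globin, was lower by the rule of size on both scales, with 0.313 ± 0.472 against 11.1. The summed level of the regulators was low, with a median of 0.604 normalized counts over 37 CTCs. In the c libraries it ran from 0, shared by several, to 29.2 in 5546-c9. Its rho with HBB was 0.25 over 37 CTCs, 0.041 in mouse 5545 (n = 10) and 0.67 in mouse 5546 (n = 17). It was 0.95 in the c libraries (n = 9) and 0.012 in the s libraries (n = 8). Ranks of such low and tied values are uncertain.

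Of 17 genes of reticulocyte enzymes and others, 15 had a row. AHSP, the chaperone of free alpha globin, was detected in 5 CTCs with 12 reads at most, and HEMGN in 1. PRDX2 had 255 ± 211 against 364 in culture but 317 against 263 on RPM, and BLVRB had 60.1 ± 37.4 against 89.0 but 70.5 against 63.5 on RPM. BNIP3L had 153 ± 98.5 against 130 and FAM210B 43.4 ± 40.0 against 34.6. Carbonic anhydrase CA2 was lower by the rule of size on both scales, with 0.0977 ± 0.218 against 42.8. The list's summed level had a rho of -0.38 with HBB.

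In iron handling, all 9 genes had a row and FLVCR1, a heme exporter, was lower by the rule of size on normalized counts but not on RPM, with 0.476 ± 0.935 against 14.9. The ferritin chains FTL and FTH1 were detected in all 37 CTCs, with 3446 ± 888 against 5026 and 1871 ± 668 against 2932. On RPM the direction turned, with 3974 against 3661 for FTL and 2154 against 2153 for FTH1. The transferrin receptor TFRC had 23.5 ± 34.4 against 124, and the heme oxygenase HMOX1 34.3 ± 58.6 against 2.65. HMOX1 was detected in 13 CTCs, with a median of 0 over all CTCs and 551 in CTC 5549-3. Of the other globins, 4 of 7 had a row. HBE1, embryonic epsilon globin, had 1 read in 1 CTC and HBQ1 1 read in each of 3. Cytoglobin CYGB had 0.123 ± 0.252 against 1.78, and myoglobin MB had no read in CTCs.

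Markers of other blood cells were read in the CTCs as well. Of 13 neutrophil genes, 10 had a row, all 10 had reads in CTCs and 0 had a read in culture. Their summed level ran from 0 to 869 normalized counts in CTCs, with a median of 33.3, and was 0 in all 6 cultured cells. S100A9, a calcium-binding protein of neutrophils and monocytes, was detected in 30 of 37 CTCs with 68.4 ± 78.4. MMP8 had 4.56 ± 9.91, MMP9 3.04 ± 6.04 and LTF 1.40 ± 2.78. MMP8 and MMP9 were detected in 9 CTCs each, and their means rest largely on CTC 5546-s4, with 283 and 215 normalized counts. The sum ranked with HBB with a rho of 0.67 over 37 CTCs, of 0.83 in the c libraries (n = 9), of -0.071 in the s libraries (n = 8) and of 0.30 in mouse 5545 (n = 10). CTC 5549-6, with the most HBB, had a sum of 576. CTC 5545-11, with 2176 normalized counts of HBB, had a sum of 0 and no read of these genes.

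Of 15 leukocyte genes, 12 had a row, and CD3D and CD3E were among those that had none. All 12 had reads in CTCs and 5 had reads in culture, and the sum ran from 0 to 1192 in CTCs against 0 to 53.7 in culture. CORO1A had 24.7 ± 48.2 against 0.198, LCP1 19.3 ± 31.99 against 19.6 but 24.3 against 13.4 on RPM, TYROBP 9.88 ± 10.5 with no read in culture and CD14 7.69 ± 12.9 against 0.791. CD14 was detected in 11 CTCs, with 416 normalized counts in CTC 5546-s4. PTPRC, the gene of CD45, whose protein was the marker for negative selection before picking, was detected in 11 of 37 CTCs and in no cultured cell. The sum ranked with HBB with a rho of 0.50 over 37 CTCs, of 0.50 in mouse 5545 (n = 10) and of 0.27 in mouse 5546 (n = 17). Inside mouse 5546 it was 0.52 in the c libraries (n = 9) and -0.14 in the s libraries (n = 8).

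Of 12 platelet genes, 10 had a row and all 10 had reads in CTCs, with 3 having reads in culture. ITGB3, an integrin that other cells have too, led with 14.3 ± 16.2 against 0.332, followed by GP9 with 4.23 ± 8.37 and ITGA2B with 0.288 ± 0.395 against 0.538. ITGB3 was detected in 14 CTCs and GP9 in 4, and both were highest in CTC 5542-8, with 128 and 76.7 normalized counts. PF4 and PPBP, abundant in platelets, were detected in 3 and 2 CTCs. The platelet sum, from 0 to 205 in CTCs and from 0 to 3.23 in culture, had a rho of 0.0070 with HBB. The part of blood cell RNA in the HBB levels was not tested.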

How the data were processed

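SMARTseq2 libraries (oligo-dT priming, cDNA amplification with a cycle number chosen per cell, Nextera XT, NextSeq) of 37 CTCs and 6 cultured LM2 cells were used, and 4 of the 47 labelled samples, which the labels give as left out of the processed data, were not analysed here. The authors aligned to GRCh38 with STAR 2.7.10a, kept uniquely mapped reads without strand, and deposited a signal, the reads of each gene scaled by DESeq2 1.42.1 size factors; tools and build are also in the submitters' processing notes. Divided by the smallest value above 0 of its cell, 100% of the values came out whole (tolerance 0.001), so reads were recovered. edgeR on these reads, with 1 sum for each mouse and 1 for the culture, called 0 genes; its spread comes from the mice alone.

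Cells were grouped by their labels, with the mouse as replicate. Where nothing says otherwise, spread between cells may be technical. Symbols, coordinates and exons came from GENCODE 44, which gave a symbol to 25565 of 25739 identifiers. Promoter windows came from RefSeq, whose table matched HBD and ALAS2. The members and lists were chosen with earlier results of these data known. Genes named are the members, the 10 closest to HBB by rho, the 4 with the highest mean in CTCs of each list and those meeting the rule of size, except some that are not reported here. AHSP, KLF1, HEMGN, PTPRC, PF4 and PPBP were named in addition, after their values were seen, as were genes without a row. The rule of size and edgeR were run on simulated data with large changes put in, as a check of the code. This does not show their power in these data. Alternatives were other detection minimums, scalings, pseudocounts, folds and averages, thinning to 469614 reads, and leaving out each mouse and cultured cell. RPM for the lists and leaving out the highest CTC of each mouse were added after seeing the data. Python 3.11.15, numpy 2.4.6, pandas 2.3.3, scipy 1.17.1, R 4.3.3 and edgeR 4.0.16 were used.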

Additional observations from a re-analysis of the deposited data

Results flagged for a closer look

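In 10 of 29 groups of 4 to 10 values, 1 value lay far from the others by Dixon's criterion. The groups were CTCs of the same mouse or library letter and, for each gene, the means of the mice. All flagged values were those of single CTCs. The criterion expects about 1 in 20 groups for independent, normally distributed values. These counts are skewed and the genes rank together, so the rates cannot be compared. CTC 5545-11 was far above the other CTCs of its mouse for HBB (2176 normalized counts, the next 198), HBD (622, the next 56.2), HBA2 (12.0, the next 2.12) and ALAS2 (26.5, the next 9.29). CTC 5549-6 was far above the other CTCs of its mouse for HBB (12138, the next 1305), HBD (3049, the next 460) and ALAS2 (291, the next 1.34). CTC 5542-2 was far below the others of its mouse for HBB (660, the next 1906) and HBD (150, the next 477). CTC 5549-2 had 26.0% HBD of HBB plus HBD reads, the next CTC of its mouse having 21.1%. The flags of HBB and HBD fall on the same 3 CTCs, as the RNAs rank together, and are not independent.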

How the results depend on the processing

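Of 112 alternatives, 88 left their result within its range of 1.5 times or of the spread and 24 moved it. For mean HBB and mean HBD this range was the SD of the mouse means, 1409 and 367 normalized counts. It is nearly as large as the means over CTCs, 1497 and 390. Those alternatives could therefore hardly move the result, and their being kept does not show that the means are stable. Mean HBB ran from 1178 to 1954 normalized counts and mean HBD from 308 to 507 with each mouse left out, the median HBD share from 20.3% to 21.0%, and rho of HBB with HBD from 0.98 without mouse 5545 to 0.99. With a normalized count of at least 8, HBA2 was detected in 15 CTCs instead of 29. HBG2 and SLC4A1 were detected in 0 CTCs with at least 3 reads or with a normalized count of at least 8, and SLC4A1 in 1 CTC after thinning. The count of genes higher in CTCs by the rule of size, 6, became 17 with a pseudocount of 0.1, 3 with 10, 24 at 2-fold, 12 on RPM and 0 in edgeR, and 5 to 13 with a mouse or cultured cell left out (13 without mouse 5541, 12 without 5546, 10 without 5549). The count of members, 2, became 4 with a pseudocount of 0.1, 1 (HBB) with 10, 4 at 2-fold (with HBA2 and ALAS2 in both cases of 4), and 2 to 3 in leave-one-out. The count on the wider lists, 0, became 1 (ITGB3) with a pseudocount of 0.1 and at 2-fold, and 0 to 1 in leave-one-out (S100A9 without mouse 5541). On RPM, an alternative chosen after seeing the data, 137 genes instead of 487 and 3 erythroid list genes instead of 5 were lower in CTCs. The cause was not tested. No paired analysis was possible because replicate numbers only name cells and no result compares cells of the same number. HBG2 and SLC4A1 had no more than 2 reads in a CTC, too few for a level.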
